A study of Mus musculus with 6 samples.

Results

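The cytosolic ribosome is built from ribosomal RNA and one copy of most of its proteins, named Rpl in the large subunit and Rps in the small subunit. Their genes were followed here in the inguinal white fat (iWAT) of mice, a depot under the skin. Members were the rows of the deposited table whose identifier maps to a protein-coding GENCODE M21 symbol of the form Rpl or Rps with a number and at most 1 letter (a, l, x or y), Rplp0 to Rplp2, or Rpsa. The S6 kinase genes were left out. This gave 79 of the 15176 genes in the table, and all 79 had a mean value of at least 10 and were tested. One more annotated gene under the rule, Rpl10l, was not analysed here.

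The 6 libraries came from mice fed a high-fat diet. The controls were 4 libraries of the genotype Steap4f/f (replicates 1, 2, 5 and 6), with loxP-flanked Steap4 alleles. The other 2 were of the genotype Steap4AKO (replicates 2 and 3), and the series title speaks of a deficiency specific to adipocytes. Steap4 is a metalloreductase of the cell membrane. The labels do not name the Cre driver, the age or the sex, and they do not say whether each library came from a separate mouse, so that p-values measure only the spread between these samples. Values are the authors' DESeq2-normalized gene counts, and their totals per library ran from 16573561 to 20547925. The depth is known only as an estimate, 15890659 to 19396655 reads in Steap4f/f, 23212270 in Steap4AKO replicate 2 and 18124638 in replicate 3, from the value that 1 read appears to have among low values. In Steap4AKO replicate 2 that value was 0.714, of which 402 low values were odd and 376 even multiples (within 0.1 read). Steap4 itself had 17017.9, 9417.2, 8310.0 and 8851.2 in the controls, against 8312.6 and 8013.6 in Steap4AKO, so that the groups overlapped (log2 difference -0.35, SE 0.29, limma adjusted p = 0.544). The table gives whole genes and not the deleted exons, and other cells of the tissue may express Steap4, so this level did not check the labels. Levels in bulk tissue cannot tell fewer cells of a type from less RNA per cell. Of 12 adipocyte markers 9 had a lower and 3 a higher mean in Steap4AKO, with median log2 deviations of -0.76 and 0.09 in replicates 2 and 3. The threshold was passed by 0 of them, where 0.473% of all genes tested passed. Adiponectin (Adipoq) had 31773 to 43018 in the controls, against 21862 and 36584. Above every control in both libraries were 2 markers, where 14.1% of all genes tested were, and below were 3, where 14.4% were. The 2 above were leptin (Lep), with 55202 and 43433 against 8106 to 22141, and lipoprotein lipase (Lpl), with 198254 and 231345 against 167889 to 197997. Among the 3 below were Cfd, with 11738 and 43889 against 62713 to 161040, and Fabp4, with 98389 and 139970 against 166490 to 235354.

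One library stood apart. In Steap4AKO replicate 2 the 9 measured markers of epididymis and epithelium summed to 11144, against 53.5 to 158.0 in Steap4f/f and 44.8 in Steap4AKO replicate 3. Of the 11144, Crisp1 alone gave 8127. At 0 in at least 1 other library were 7 of the 9 (Cldn4, Crisp1, Epcam, Krt8, Krt18, Pax2 and Pax8). The 10 macrophage markers summed to 27099 there, against 7757 to 8800 in Steap4f/f and 8015 in Steap4AKO replicate 3. The 6 mesothelial markers summed to 2153 there, against 57.4 to 443.2 in Steap4f/f and 24.4 in replicate 3. The 2 Steap4AKO libraries are therefore given separately throughout. The part of these cells in the ribosomal protein values was not tested.

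Ribosomal protein genes are among the most highly transcribed genes of most cells, and their messenger RNAs are known for being translated together under the control of growth signals through the mTOR kinase. That control acts on a 5' terminal oligopyrimidine tract, a C at the transcript start followed by a run of C and T letters. A few subunits have paralogs with narrower expression: Rpl3l replaces Rpl3 in skeletal muscle and heart, Rpl39l is best known from testis, and Rps27l is a broadly expressed relative of Rps27. The acidic proteins Rplp0, Rplp1 and Rplp2 form the stalk that recruits elongation factors.

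Sequences around annotated starts are shown for genes the results turn on, to let this feature be read in them. Each window holds 15 bases before and 15 from the start on, from RefSeq promoters on GRCm38.p6, written 5' to 3' on the transcribed strand, with the longest run of a C followed by at least 4 letters C or T in capitals. No run was found in the window of Rpl37. The longest runs of Rplp2 and Rps27 span the annotated start, and those of the other 3 genes lie before or after it. In Rpl39 a shorter run, cctct, not in capitals, also spans the annotated start. The Rpl37 window ends before the GENCODE start of this gene at 5116645. Those of Rplp2 and Rpl39 lie downstream of the GENCODE gene starts at 141447370 and 37085402. The bases around these GENCODE starts were not searched. The 6 windows are those of a stalk protein (Rplp2), the member with the lowest difference among ubiquitous subunits (Rpl37), a pair of ubiquitous subunits (Rps27 and Rpl39) and 2 paralogs (Rpl3l and Rpl39l). They lie at chr7:141447636-141447665 (plus strand), chr15:5116598-5116627 (plus), chr3:90213634-90213663 (minus), chrX:37085208-37085237 (minus), chr17:24727811-24727840 (plus, the first of 2 annotated starts) and chr16:10170213-10170242 (plus).
Rplp2: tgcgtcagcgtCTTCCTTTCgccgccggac
Rpl37: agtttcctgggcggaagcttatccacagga
Rps27: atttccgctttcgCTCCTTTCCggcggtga
Rpl39: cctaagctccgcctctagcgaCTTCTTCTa
Rpl3l: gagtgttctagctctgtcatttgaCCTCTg
Rpl39l: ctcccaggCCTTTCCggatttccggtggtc

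The promoter table matched 59 of the 79 members, with 71 starts. Such a run was present in the 30-base window of 59.2% of these starts and of 36.4% of all 32851 starts in the table. On the opposite strand the shares were 25.4% and 40.8%. A run beginning exactly at the annotated start was present in 18.3% of member starts and 2.51% of all starts. Annotated starts can lie some bases from the true start, and a match is a description of these letters only.

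Most members had lower values in Steap4AKO, by a small amount that was larger in replicate 3 than in replicate 2. Among the 79 members the mean log2 value was lower in Steap4AKO for 76, where this held for 47.8% of the 15006 genes tested. The count was 70 under quantile normalization, 56 with equal totals and 61 without Steap4AKO replicate 3. For these settings the shares over all genes are not given here. With equal totals the median log2 difference of all genes tested rose as well, to 0.21. The median log2 difference of the members, taken as Steap4AKO less control in log2(value + 1), was -0.26, against 0.02 over all genes tested. Past an adjusted p of 0.05 (limma, Benjamini-Hochberg over all genes tested) stood 1 member, the muscle paralog Rpl3l, which was lower, where 0.473% of all genes passed, 0.433% lower and 0.04% higher. At an unadjusted p under 0.05, 10 members were lower and 0 higher, where 9.66% of all genes were lower in this way and 8.45% higher. Across the other 78 members, therefore, the test separated no single gene.

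The 2 Steap4AKO libraries differed from each other in nearly every member. In Steap4AKO replicate 3, 75 of the 79 members were below every Steap4f/f library, where 23.4% of all genes were. In Steap4AKO replicate 2 this held for 20 members, where 28.6% of all genes were, while 55 lay within the Steap4f/f range and 4 (Rpl3, Rpl10, Rpl32 and Rps26) lay above it, where 31.5% of all genes did. Replicate 3 was the lower of the pair for 77 of 79 members, against 50.4% of all genes tested. The 2 exceptions were the paralogs Rpl3l and Rpl39l. Both libraries lay below every Steap4f/f library for 20 members, where 14.4% of all genes tested did, and 0 members lay above, where 14.1% did. Among these 20 were Rpl3l, Rpl39l, Rpl28, Rpl37, Rpl39, Rplp2, Rps6, Rps20 and Rpsa. Without Steap4AKO replicate 2 the count was the 75 given above for replicate 3, where 23.4% of all genes were below. Without Steap4f/f replicate 6 it was 49, and it was 3 both with equal totals and under quantile normalization. For these last settings the shares over all genes are not given here, and leaving out a library can only keep or raise such a count.

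Without the 3 paralogs, the 76 other members gave a compact picture by library. Their median log2 deviation from the Steap4f/f mean was -0.12 in Steap4AKO replicate 2 and -0.40 in replicate 3. Each Steap4f/f library, set against the other 3, had a median of 0.18, 0.12, -0.05 and -0.21 in replicates 1, 2, 5 and 6. Steap4AKO replicate 2 thus fell inside the range of the Steap4f/f medians and replicate 3 below it. The SD of the deviations among the 76 members was 0.17 and 0.16 in Steap4AKO replicates 2 and 3, and 0.11 to 0.23 across the controls. The spread among members was thus similar in both Steap4AKO libraries and within the range of the controls.

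**Figure D1:**
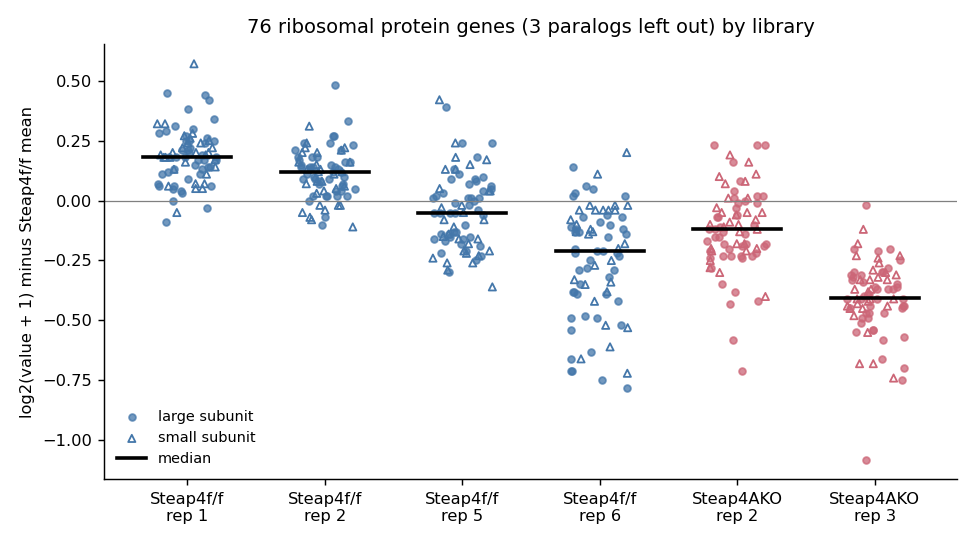
Each point is 1 of 76 ribosomal protein genes, as its log2(value + 1) minus the Steap4f/f mean (for a Steap4f/f library, the mean of the other 3), with filled circles for the large subunit, open triangles for the small subunit and a bar at the median. The medians run from 0.18 in Steap4f/f replicate 1 to -0.21 in Steap4f/f replicate 6, with -0.12 and -0.40 in the Steap4AKO libraries.

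Both subunits had similar differences. The 46 large subunit genes had a median log2 difference of -0.28, with library medians of -0.15 and -0.41 in Steap4AKO replicates 2 and 3, and 12 of them were below all Steap4f/f libraries in both. The 30 small subunit genes had a median of -0.23, with -0.09 and -0.38, and 6 of them were below in both. Over all genes tested the share below in both was 14.4%, and the difference between the subunits was not tested. As a share of all deposited values, the 79 members made up 1.86, 1.8, 1.7 and 1.47% in Steap4f/f replicates 1, 2, 5 and 6 and 1.86 and 1.42% in Steap4AKO replicates 2 and 3. On this scale Steap4AKO replicate 2 equalled the highest Steap4f/f library. Totals were lower in Steap4AKO, and with equal totals the median difference of the members was -0.07 while that of all genes tested moved to 0.21. The median of the members less that of all genes, which equal totals cannot change, was -0.28. It was -0.17 under quantile normalization and -0.14 without Steap4AKO replicate 3.

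Among the stalk proteins, Rplp2 stood out from its partners. Rplp2 (chromosome 7, 141447370 to 141451585, GRCm38) had 6170, 5885, 5234 and 4503 in Steap4f/f replicates 1, 2, 5 and 6, against 3314 and 3205 in Steap4AKO replicates 2 and 3. Both Steap4AKO libraries were below every control, by a similar amount in each. Its mean was 1.67-fold lower, a log2 difference of -0.73 (SE 0.16) with an unadjusted p of 0.0019 that did not pass over all genes (limma, adjusted p = 0.0874). Rplp0 (chromosome 5, 115559467 to 115563727), which anchors the stalk to the ribosome, had 12750, 13211, 11082 and 11738 in the controls, against 11389 and 9497 in Steap4AKO, and its groups overlapped (log2 difference -0.23, SE 0.16, adjusted p = 0.479). Rplp1, which pairs with Rplp2 in the stalk, had 6292, 5728, 6170 and 5596 against 6124 and 4709, and its groups overlapped as well (-0.15, SE 0.15, adjusted p = 0.64). The ratio of the Rplp2 value to the Rplp0 value, which any scaling of a library leaves alone, was 0.384 to 0.484 in the controls, against 0.291 and 0.337 in Steap4AKO, while that of Rplp1 to Rplp0 was 0.434 to 0.557 and 0.538 and 0.496. The first ratio did not overlap between groups and the second did.

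In the large subunit outside the stalk, the ubiquitous members with the lowest differences were Rpl37, Rpl35a, Rpl28 and Rpl41. Rpl37 (chromosome 15, 5116645 to 5119140) had 1812, 1904, 1371 and 1025 in the controls, against 989.9 and 700.6 in Steap4AKO, so that Steap4AKO replicate 2 lay just under the lowest control. Its mean was 1.81-fold lower (log2 difference -0.83, SE 0.27, adjusted p = 0.187). Rpl28 had 4423, 4624, 4090 and 3121 against 3004 and 2753, again with replicate 6 as the lowest control and no overlap (-0.48, SE 0.18, adjusted p = 0.227). Rpl35a had 2768, 2753, 2411 and 1571 against 1780 and 1428, and Rpl41, the smallest ribosomal protein, had 4680, 4368, 5024 and 2735 against 3049 and 2912. In both, Steap4f/f replicate 6 reached the Steap4AKO values, and the adjusted p-values were 0.295 and 0.358.

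At the other end of the large subunit stood Rpl3, Rpl32, Rpl10, Rpl34, Rpl5 and Rpl4, in this order. Rpl10, which completes the large subunit late in its assembly, had 8178, 8014, 7391 and 8206 in the controls, against 9296 and 6428 in Steap4AKO. The Steap4AKO libraries thus lay on opposite sides of the controls (log2 difference -0.04, SE 0.17, adjusted p = 0.925). Rpl32 had 3014, 3103, 3105 and 2656 against 3470 and 2574, which was the same arrangement (0.01, SE 0.16). Rpl3 (chromosome 15, 80077791 to 80091868), at the peptidyl transferase centre, had 5917, 5895, 5543 and 5434 against 6655 and 5614, a log2 difference of 0.10 (SE 0.14, adjusted p = 0.715) that was -0.02 without Steap4AKO replicate 2. Rpl34 and Rpl4 had log2 differences of -0.05 and -0.13, which turned to 0.14 and 0.05 with equal totals and to 0.02 and 0.05 under quantile normalization, and that of Rpl10 turned to 0.15 and 0.12.

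Of the large subunit genes with a role outside the ribosome, Rpl5 and Rpl11 bind the p53 regulator Mdm2 together with the 5S RNA. Rpl5 had 5011, 5766, 4686 and 5647 in the controls, against 5541 and 4580 in Steap4AKO, with overlapping groups (log2 difference -0.06, SE 0.15). Rpl11 had 5349, 5065, 4771 and 3537 against 3626 and 3391, where Steap4f/f replicate 6 lay between the Steap4AKO libraries (-0.40, SE 0.19, adjusted p = 0.302). Rpl13a, often used as a reference gene in quantitative PCR, had 6976, 6836, 6238 and 5502 against 5612 and 4475 (-0.34, SE 0.16, adjusted p = 0.312). None of these 3 genes passed the test, and the difference between Rpl5 and Rpl11 was not tested.

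In the small subunit, the lowest differences were those of Rps29, Rps23, Rps28 and Rps20. Rps20 (chromosome 4, 3831334 to 3835665) had 3144, 3571, 3148 and 3061 in the controls, against 2780 and 2199 in Steap4AKO, with no overlap and little spread among the controls (log2 difference -0.38, SE 0.15, adjusted p = 0.231). Rps29, one of the shortest subunits, had 1110, 1044, 1260 and 717.5 against 767.2 and 606.8, and Rps28 had 870.6, 856.4, 814.5 and 555.2 against 673.1 and 476.0. Rps23, which lies at the decoding centre, had 3406, 3566, 3336 and 2083 against 2551 and 1886. In these 3 genes Steap4f/f replicate 6 lay between the Steap4AKO libraries, and their log2 differences of -0.57, -0.43 and -0.47 had SEs of 0.24, 0.24 and 0.24.

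Rpsa, the laminin receptor precursor and a protein of the small subunit, had 12584, 12208, 10211 and 11303 in the controls, against 10021 and 8510 in Steap4AKO, without overlap but with replicate 2 just under replicate 5 (log2 difference -0.32, SE 0.16, adjusted p = 0.33). Rps6, the substrate of the S6 kinases, had 7478, 7012, 6206 and 6301 against 6134 and 5343, also without overlap (-0.23, SE 0.15, adjusted p = 0.43). Rps19, the gene most often mutated in Diamond-Blackfan anaemia, had 4194, 3948, 4157 and 3063 against 3323 and 2939 and overlapped (-0.29, SE 0.17, adjusted p = 0.398). The highest members of this subunit beside Rps27 were Rps4x, Rps13, Rps14 and Rps26, with log2 differences of -0.09 to -0.11 and adjusted p-values of 0.713 to 0.783. With equal totals, which raised all genes alike, they were 0.07 to 0.10.

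**Figure D2:**
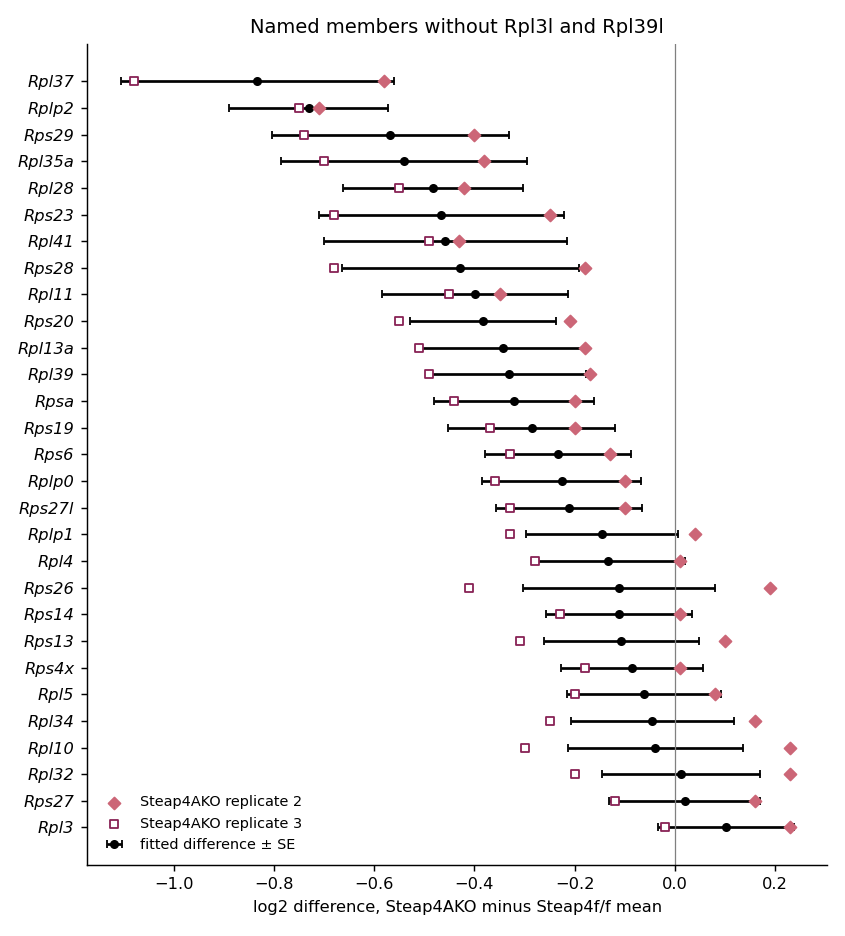
Log2 difference (Steap4AKO minus Steap4f/f) of the 29 named members other than Rpl3l and Rpl39l, with the fitted difference and its SE as a black point with bars and each Steap4AKO library against the Steap4f/f mean as a diamond (replicate 2) or open square (replicate 3). Replicate 3 lies to the left of replicate 2 in every row, and the pair is closest in Rplp2, at -0.71 and -0.75.

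Values were also set against length. The coding length of the 76 members, without the stop codon, ran from 75 bases in Rpl41 to 1257 in Rpl4, with a median of 454. The 9 members under 300 bases had a median log2 difference of -0.34, the 46 members of 300 to under 600 bases -0.26 and the 21 longer members -0.23. In Steap4f/f replicate 6, a control, the medians of these classes were -0.61, -0.22 and -0.09. In Steap4AKO replicate 3 they were -0.49, -0.40 and -0.33, and in replicate 2 -0.18, -0.12 and -0.10. Members under 300 bases were thus lowest in Steap4f/f replicate 6, and those of both longer classes in Steap4AKO replicate 3.

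Across the 76 members the correlation of the log2 deviation with log2 coding length was 0.51 in Steap4f/f replicate 6, 0.30 in Steap4AKO replicate 2 and 0.39 in replicate 3 (Spearman's rho 0.44, 0.22 and 0.33). In Steap4f/f replicates 1, 2 and 5 it was -0.28, -0.08 and -0.49. These are descriptions across genes, which share their library and are not replicates, and the deviations of the Steap4f/f libraries depend on each other through their common mean. With the GC content of the transcript the correlation lay between -0.15 and 0.24. Other protein-coding genes showed a length relation too. The 287 of them under 300 coding bases had median deviations of -0.19, -0.16 and -0.28 in Steap4f/f replicate 6 and Steap4AKO replicates 2 and 3, and the 2944 of at least 2400 bases had 0.09, 0.17 and 0.13. The members were lower than the other genes of their class in Steap4AKO replicate 3, at -0.40 against -0.16 for the 300 to 600 base class, and close to them in replicate 2, at -0.12 against -0.11. The control Steap4f/f replicate 6 was likewise lower, at -0.22 against -0.04, and under 300 bases at -0.61 against -0.19. The part of coding length in the differences was not tested.

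**Figure D3:**
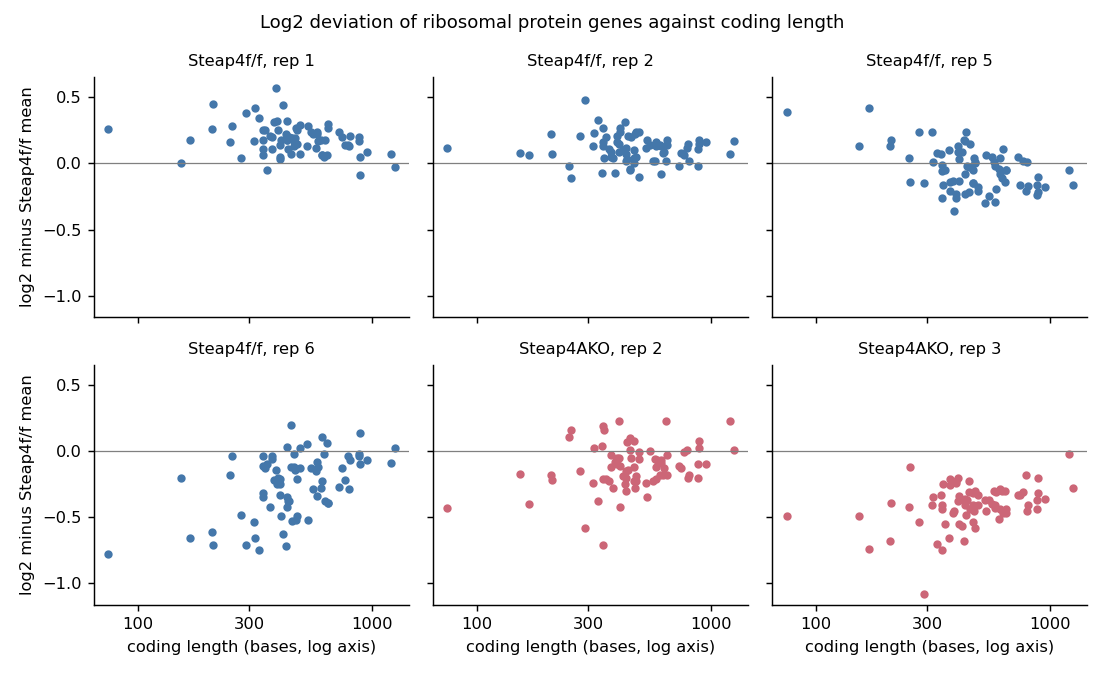
Log2 deviation from the Steap4f/f mean against coding length in bases on a log axis, 1 panel per library, for the 76 members. Rpl41, the shortest member, stands at -0.78 in Steap4f/f replicate 6, and the whole cloud lies below 0 in Steap4AKO replicate 3.

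The 3 paralogs behaved unlike one another. Rpl3l (chromosome 17, 24727820 to 24736143) had 264.1, 1385, 826.2 and 1559 in Steap4f/f replicates 1, 2, 5 and 6, against 17.6 and 40.8 in Steap4AKO replicates 2 and 3. It fell 34.5-fold, a log2 difference of -4.90 (SE 0.70, limma adjusted p = 0.0466), while its ubiquitous partner Rpl3 overlapped between groups. Per length of transcript, the level of Rpl3l was 4.38, 23.1, 14.6 and 28.2% of that of Rpl3 among the controls, against 0.26 and 0.715% in Steap4AKO. The Steap4f/f libraries themselves thus differed several-fold in this ratio. The call was not stable. Its limma adjusted p was 0.0503 with a pseudocount of 0.5, 0.0512 with a minimum mean of 50 and 0.069 with a robust variance prior. It was 0.123 to 0.177 without any 1 of Steap4f/f replicates 2, 5 and 6. The value was 0.00604 without Steap4f/f replicate 1, 0.0306 with array weights and 0.0425 with a pseudocount of 10. The log2 difference was -4.31 without Steap4AKO replicate 2 and -5.48 without replicate 3. With 1 Steap4AKO library left out, the other is assumed to vary like the controls.

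Skeletal muscle markers moved with Rpl3l. All 16 of 16 had a lower mean in Steap4AKO, where 47.8% of all genes tested had one. In both Steap4AKO libraries 14 were below every control, where 14.4% of all genes were. Their summed value was 151027 to 825384 in the controls, against 2609 and 19618 in Steap4AKO. The slow myosin Myh7 was the marker listed at 0, in Steap4f/f replicate 1 and Steap4AKO replicate 3. Per 1000 of this sum, Rpl3l stood at 1.75, 2.16, 1.68 and 1.89 among the controls, against 6.74 and 2.08 in Steap4AKO. Replicate 3 thus lay inside the control range and replicate 2, with a value of 17.6, lay above it. With the mean of the 16 markers, each over its Steap4f/f mean, as a covariate, Rpl3l had a log2 difference of -3.48 (limma adjusted p = 0.206), and the median of the 79 members was -0.40. This covariate was 24.8 to 192% in the controls, against 0.756 and 4.93% in Steap4AKO, and entered without a log against log2 values. Because it did not overlap between the groups, the fit cannot separate genotype from muscle content, and nothing is concluded from it.

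Rpl39l (chromosome 16, 10170226 to 10174911) had 53.4, 67.6, 39.0 and 22.7 in the controls, against 2.7 and 15.5 in Steap4AKO. The groups did not overlap, with a 5.01-fold lower mean, but the difference did not pass (log2 difference -2.47, SE 0.75, adjusted p = 0.171), and the value of 2.7 is that of a few reads. Its order in Steap4f/f was not that of Rpl3l, since replicate 6 was the highest control for Rpl3l and the lowest for Rpl39l. Its partner Rpl39 (chromosome X, 37082520 to 37085402) had 981.9, 1024, 1050 and 886.4 against 875.2 and 697.8 (-0.33, SE 0.15, adjusted p = 0.301). Rps27l, which responds to p53, had 1025, 996.5, 975.0 and 856.3 against 898.3 and 766.3, and Rps27 had 2066, 1686, 1658 and 1746 against 1986 and 1641. Neither of this pair differed beyond its spread, with log2 differences of -0.21 (SE 0.15) and 0.02 (SE 0.15, and -0.12 without Steap4AKO replicate 2).

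**Figure D4:**
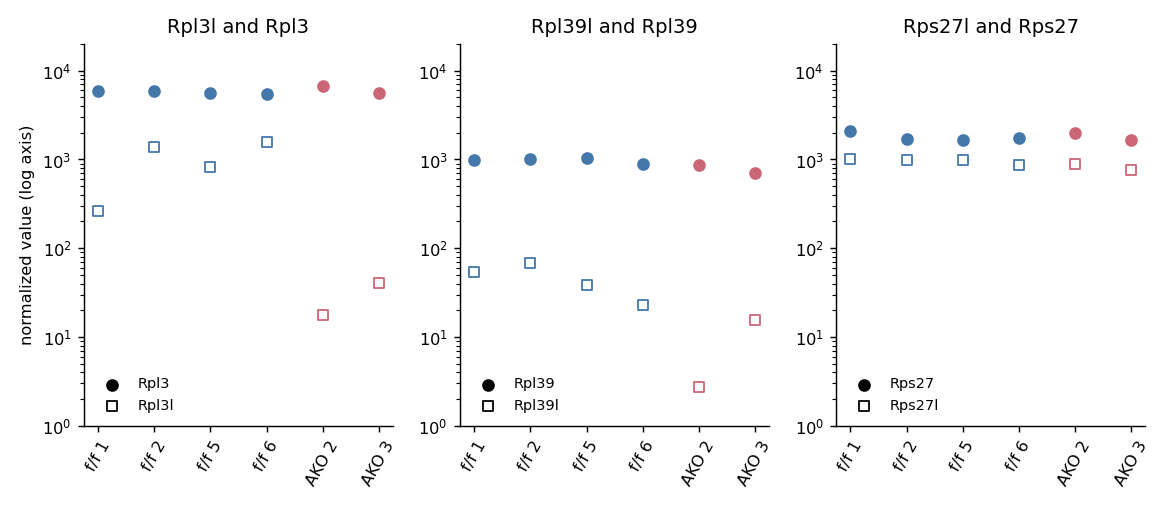
Normalized values on a log axis of each paralog (open squares) and its partner (filled circles) in the 4 Steap4f/f libraries (f/f, blue) and the 2 Steap4AKO libraries (AKO, red). Rpl3l and Rpl39l lie lower in both Steap4AKO libraries, at 17.6 and 40.8 and at 2.7 and 15.5, while Rpl3, Rps27 and Rps27l overlap between the groups.

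How far reads of a pair could be exchanged depends on how alike the sequences are. The coding sequences of Rpl39 and Rpl39l, of 153 bases each without the stop codon, differ at 23 bases (85.0% identity), and the longest identical stretch is 38 bases. Rpl3 and Rpl3l are 74.3% identical over 1206 aligned bases, with a longest identical stretch of 22 bases, and Rps27 and Rps27l are 76.2% identical with a longest stretch of 11. The first 153 coding bases of Rpl3 and Rpl3l and the whole of Rpl39 and Rpl39l, from GENCODE M21 transcripts on GRCm38, are shown 5' to 3' with the bases that differ within a pair in capitals.
Rpl3: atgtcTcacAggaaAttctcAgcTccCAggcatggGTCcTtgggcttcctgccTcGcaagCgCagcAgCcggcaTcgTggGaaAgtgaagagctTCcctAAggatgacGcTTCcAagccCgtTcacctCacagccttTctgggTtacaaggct
Rpl3l: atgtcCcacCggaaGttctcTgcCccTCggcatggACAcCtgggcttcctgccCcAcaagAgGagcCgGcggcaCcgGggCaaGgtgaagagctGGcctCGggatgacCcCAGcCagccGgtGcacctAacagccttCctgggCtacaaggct
Rpl39: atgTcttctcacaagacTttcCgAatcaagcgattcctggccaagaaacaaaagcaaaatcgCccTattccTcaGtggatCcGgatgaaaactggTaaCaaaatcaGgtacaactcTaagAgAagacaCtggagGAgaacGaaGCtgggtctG
Rpl39l: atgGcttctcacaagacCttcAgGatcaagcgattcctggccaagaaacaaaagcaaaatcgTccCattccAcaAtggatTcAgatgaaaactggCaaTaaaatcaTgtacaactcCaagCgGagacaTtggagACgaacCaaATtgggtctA

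Differences between the members of a pair are spread along the printed sequences, and these pairs' coding sequences hold no identical stretch longer than 38 bases. Ribosomal protein genes also have many processed pseudogenes. The table held 27 rows named as pseudogenes of Rpl or Rps genes, which summed to 0.661 to 0.786% of the members' sum in every library. Values of single members remain uncertain by what the counting assigned to such copies.

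Cytosolic ribosomal proteins outside the symbol rule gave similar values. The list held 8 genes with a median log2 difference of -0.19, all with a lower mean in Steap4AKO, where 47.8% of all genes had one. Of these, 2 were below every control in both libraries, where 14.4% of all genes were, and 0 passed the threshold, where 0.473% did. Fau, a ubiquitin-like fusion to a small subunit protein, and Rack1, a scaffold on the small subunit, had log2 differences of -0.20 (SE 0.14) and -0.03 (SE 0.14).

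The mitochondrial ribosome showed the opposite order of the 2 Steap4AKO libraries. Its 78 genes had median deviations of -0.56 in Steap4AKO replicate 2 and -0.32 in replicate 3, against -0.12 and -0.41 for the 79 cytosolic members, and of -0.09 to 0.07 in Steap4f/f. Their median log2 difference was -0.43, 51 of 78 were below every control in both libraries, where 14.4% of all genes were, and 0 passed the threshold, where 0.473% did. The difference between the 2 kinds of ribosome was not tested.

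Other parts of the translation machinery had medians nearer to 0. Of 8 elongation factors 6 had a lower mean (median -0.16), and 1 passed the threshold, Eef1a2, the isoform of muscle and neurons, with 1316, 5312, 3992 and 8690 in the controls, against 26.4 and 185.7 in Steap4AKO (a log2 difference of -5.79 with SE 0.87, adjusted p = 0.0466). It was called in the same comparison as Rpl3l, where 0.473% of all genes passed, and moved with the same 16 muscle markers. The ubiquitous Eef1a1 and Eef2, whose messenger RNAs carry the same 5' tract as those of the ribosomal proteins, had log2 differences of 0.03 (SE 0.23) and -0.08 (SE 0.18), and Tpt1, another such gene, had -0.50 (SE 0.22, adjusted p = 0.276).

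Of 29 initiation factors 17 had a lower and 12 a higher mean (median -0.08), and of 26 ribosome biogenesis factors 16 and 10 (median -0.08). Of 14 genes of RNA polymerase I, which transcribes ribosomal RNA, 9 had a lower and 5 a higher mean (median -0.05), and of 17 genes of growth control 10 and 7 (median -0.06). None of these 4 lists had a member past the threshold, where 0.473% of all genes passed. Within them, the kinase Mtor had 727.6, 1008, 1063 and 1879 in the controls, against 1713 and 1683 in Steap4AKO (a log2 difference of 0.63 with SE 0.33, adjusted p = 0.353), with replicate 6 above both. Larp1, which binds the 5' tract, had 2492, 2534, 2669 and 2940 against 3130 and 3055 (0.22, SE 0.13, adjusted p = 0.394), above every control. The transcription factor Myc, which activates ribosome biogenesis, had 140.8 to 398.7 against 213.8 and 197.4, and the nucleolar protein Npm1 1708 to 2850 against 2519 and 1539, both with overlap.

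**Figure D5:**
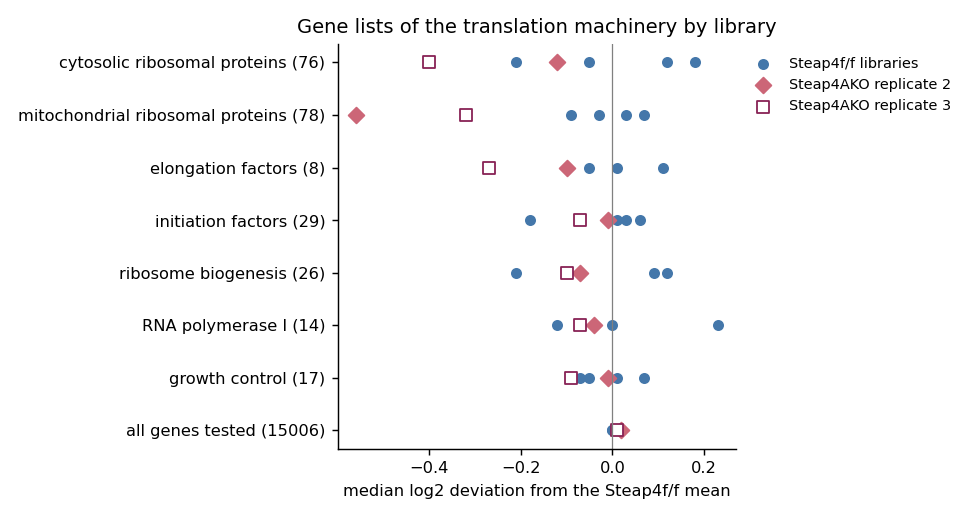
Median log2 deviation from the Steap4f/f mean of 7 gene lists and of all genes tested, with the number of genes in brackets, for the 4 Steap4f/f libraries (blue circles) and Steap4AKO replicate 2 (diamonds) and replicate 3 (open squares). Cytosolic ribosomal proteins stand at -0.12 and -0.40 in the 2 Steap4AKO libraries and mitochondrial ribosomal proteins at -0.56 and -0.32.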

How the data were processed

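Libraries were made from total RNA, isolated with a lipid tissue kit, and sequenced by a company, per the labels' protocols. The submitters' processing notes list DESeq2 1.12.4, R 4.2.0, RSEM 1.3.3 and STAR 2.7.0e, and the builds mm10 and GRCm38, without roles. In the sources used here neither annotation nor strandedness is given. The deposited values are a signal: gene counts the authors normalized with DESeq2, as the table's name states. At the best step of each library 46.6 to 57.9% of low values came within 0.1 read of a whole number, so whole reads were not recovered and neither a count test nor counting intervals were computed.

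GENCODE M21 named 15133 of 15176 genes. The 15006 genes with a mean of at least 10 entered limma 3.58.1 (R 4.3.3) as log2(value + 1), with a variance trend, both groups, no covariate and two-sided tests, adjusted by Benjamini-Hochberg. The fit was tested on simulated data. Lengths and coding sequences come from 1 transcript a gene, the longest of the best APPRIS class. Alignments used Biopython 1.88, figures matplotlib 3.10.9. Named members were those past the threshold, the stalk proteins, Rpsa, paralogs with partners, Rpl5, Rpl11, Rpl13a, Rps6, Rps19, and the 4 lowest and 4 highest others of each subunit with a mean of at least 100. Of the pathway lists, those past the threshold and Eef1a1, Eef2, Tpt1, Npm1, Rack1, Fau, Larp1, Mtor and Myc were named. Results for some genes are not reported here. Members, lists and settings were chosen with earlier results of these data known. Alternatives were other pseudocounts, filters, scalings, variance models, a muscle covariate, other member rules and each library left out.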

Additional observations from a re-analysis of the deposited data

Results flagged for a closer look

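Rps23 in Steap4f/f replicate 6, at 2083, stood far from the other 3 Steap4f/f libraries, with a gap to the nearest of 0.845 of the range of the group. Among 34 genes examined in this way it was the 1 found, and chance gives about 1 in 20 groups.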

How the results depend on the processing

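The median log2 difference of the members stayed below 0 under every alternative run: it was -0.149 under quantile normalization, -0.074 with equal totals and -0.407 to -0.124 with each library left out. The count of members past the threshold was 1, where 71 of all genes tested passed. It was 0 with a pseudocount of 0.5, a minimum mean of 50, a robust variance prior and the muscle covariate, where 1 of all genes passed in each. With each Steap4f/f library left out it was 0 to 1, where 1 to 238 of all genes passed. Members below every control numbered 3 under quantile normalization, 3 with equal totals, and 20 to 75 with each library left out. Leaving out a library can only keep or raise such a count for the same genes. The 75 is the count of Steap4AKO replicate 3 alone, where 23.4% of all genes were below, and shares in the other settings are not given here. No paired analysis was possible because the groups share only replicate number 2. Depth limits Rpl39l, whose lowest value is 2.7.

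Members with a lower mean numbered 76 in the main fit, 70 under quantile normalization, 56 with equal totals and 61 without Steap4AKO replicate 3. The shares of all genes in these alternatives are not given here. Sign changes are listed for the named members only, and other members changed sign too. Log2 differences of named members that changed sign were, under quantile normalization, Rpl10 0.116, Rpl34 0.023, Rpl4 0.046, Rpl5 0.082, Rps14 0.009, Rps4x 0.051. With equal totals they were Rpl10 0.145, Rpl34 0.139, Rpl4 0.051, Rpl5 0.122, Rplp1 0.039, Rps13 0.077, Rps14 0.072, Rps26 0.071, Rps4x 0.098. With array weights it was Rpl32 -0.005, and with the muscle covariate Rpl32 -0.109, Rpl5 0.063, Rps27 -0.095. Across the fits with 1 library left out, Rpl10 from -0.305 to 0.227, Rpl3 from -0.02 to 0.225, Rpl32 from -0.203 to 0.227, Rpl34 from -0.248 to 0.158, Rpl4 from -0.277 to 0.011, Rpl5 from -0.199 to 0.075, Rplp1 from -0.335 to 0.044, Rps13 from -0.31 to 0.096, Rps14 from -0.232 to 0.008, Rps26 from -0.414 to 0.19, Rps27 from -0.119 to 0.157 and Rps4x from -0.177 to 0.006 spanned 0. The causes were not tested.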
